A study of Mus musculus with 2 samples.

Results

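The genes described here are 10 regulators and markers of cell cycle arrest (Cdkn2a, Cdkn2b, Cdkn2c, Cdkn1a, Cdkn1b, Cdkn1c, Trp53, Mdm2, Ccnd1 and Lmnb1), chosen by symbol from the 31054 genes counted in single cells of mouse gonadal white adipose tissue, and all 10 were found. The cells came from male p16-CreERT2/R26-LSL-tdTomato mice that were 18 months old and had received tamoxifen, which lets the Cre recombinase made under the p16 promoter switch on the red reporter tdTomato. Cells without CD31 (an endothelial surface protein) and CD45 (a leukocyte surface protein) were sorted into a Tom+ and a Tom- library, so genotype, age and tamoxifen were shared and the sort on red fluorescence set the libraries apart. The sort was meant to part cells in which p16-Cre was active from those in which it was not. The reporter is permanent once switched on, so Tom+ is meant to record p16-Cre activity at the time of tamoxifen. It does not record the Cdkn2a RNA of the day of the sort. The number of mice behind each library is not given in the sources used here.

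The INK4 proteins (Cdkn2a, Cdkn2b, Cdkn2c) bind the kinases CDK4 and CDK6 and keep them from pairing with D-type cyclins such as cyclin D1, the product of Ccnd1. The CIP/KIP proteins (Cdkn1a, Cdkn1b, Cdkn1c) bind cyclin-kinase complexes more widely, and Cdkn1a, which encodes p21, is a classical target of the transcription factor p53 (Trp53), whose protein is in turn marked for degradation by Mdm2. High Cdkn2a and Cdkn1a with low Lmnb1, the gene of the nuclear lamina protein lamin B1, are widely used as signs of cellular senescence, a lasting arrest in which cells stay alive and metabolically active.

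Levels are given in CPM, the UMIs of a gene per 1000000 UMIs of a group of cells, where a UMI (unique molecular identifier) stands for 1 captured RNA molecule. Cells with 1001 to 6999 genes and under 8% mitochondrial UMIs were kept, 3524 of 5566 barcodes in the Tom+ library and 6717 of 11838 in the Tom- library. Cells with at least 10 UMIs of the mesothelial genes Msln, Upk3b, Krt19, Lrrn4 and Upk1b were called mesothelial (250 Tom+ and 1887 Tom-) and cells with under 5 were called stromal (3263 and 4800), leaving 11 and 30 cells in between. Median depth was 14235 and 11270 UMIs per stromal cell and 18601.5 and 14753 UMIs per mesothelial cell, Tom+ first. Each condition was 1 library, so no test between conditions was possible, and every interval is a 95% interval that covers counting error only, with neither the spread between mice nor that between cells. A change was named where the absolute log2 ratio was at least 0.5, a fold of 1.41, and the share of all genes past that fold stands beside the first count of each comparison.

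The classes differed in markers that did not define them. The summed level of further mesothelial genes (Wt1, Gpm6a, Bnc1, Krt8, Krt18 and Muc16) was 2405 and 2541 CPM in mesothelial cells against 176 and 278 in stromal cells, Tom+ first. Of 7 stromal progenitor genes, 6 were higher in stromal cells of both libraries (Pdgfra, a receptor of adipocyte progenitors, at 344 and 282 against 41.9 and 51.4), Cd34 was lower (294 and 292 against 435 and 417), and their sum was 29801 and 31188 against 13761 and 15407. The reporter RNA followed the sort, with 211 CPM of tdTomato in Tom+ stromal cells against 13.1 in Tom- stromal cells, and 780 against 8.25 in mesothelial cells. However, only 28.6% of Tom+ stromal cells held a tdTomato UMI, against 79.2% of Tom+ mesothelial cells. Whether p16-Cre had been active in the Tom+ cells without such a UMI was not tested.

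Several features of the libraries bear on the values. The libraries shared 2224 barcodes, and 506 of the Tom+ and 284 of the Tom- cells that were kept carried one of them, including 100 of the 250 Tom+ mesothelial cells, so results are also given without these barcodes (2859 and 4725 stromal cells and 150 and 1680 mesothelial cells remained). In addition, 152 Tom+ and 73 Tom- stromal cells held at least 100 UMIs of 6 immune genes, mostly the antibody light chain Igkc, and are called immunoglobulin-rich here. Antibody transcripts take up a large part of their UMIs, which by itself lowers the CPM of every other gene. These cells are stromal by the rule alone, which asks only for under 5 mesothelial UMIs. In Tom+ stromal cells with 5 or more tdTomato UMIs, the stromal progenitor genes summed to 14236 CPM with them and 27759 without them. Summed immune markers reached 47329 CPM in Tom+ stromal cells against 11771 in Tom- stromal cells, while Ptprc, which encodes CD45, was at 7.57 and 3.44.

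Cdkn2a encodes p16Ink4a and, from another first exon, the p53 activator p19Arf. The gene lies on the minus strand of chromosome 4 (GRCm38 4:89274471-89294653). The p16Ink4a transcript Cdkn2a-201 starts with exon 1 at 89281986-89282192 and the Arf transcript Cdkn2a-202 with exon 1 at 89294334-89294653. Both then use exon 2 at 89276645-89276985 and an exon 3 that starts at the same base. The coding sequence across the border of exons 1 and 2 is shown for both because it explains what Cdkn2a UMIs can and cannot tell, with exon 1 in lower case and exon 2 in capitals.
Cdkn2a-201: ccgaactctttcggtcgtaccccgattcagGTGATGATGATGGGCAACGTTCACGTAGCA
Cdkn2a-202: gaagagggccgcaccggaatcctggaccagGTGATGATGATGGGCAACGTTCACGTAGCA
The capitals are the same in both transcripts, and the letters before them come from different first exons. The transcripts are 852 and 895 bases long, share 575 bases and end 70 bases apart, and the libraries read the 3′ end, so their UMIs count p16Ink4a and p19Arf RNA together. In contrast, the PCR primers of the study for p16 read exon 1 of Cdkn2a-201, and each matched 1 of the 2 transcripts. They are shown with bases in exon 1 in capitals.
Cdkn2a forward: CCGCTGCAGACAGACTGG
Cdkn2a reverse: ccatcatcatcacCTGAATCG
The forward primer lies at 4:89282087-89282104, and the reverse primer spans the border with 8 bases in exon 1. The Tom reporter and these primers are therefore tied to p16, whereas the UMIs below are tied to the whole gene.

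Cdkn2a was sparse in all 4 groups and higher in mesothelial than in stromal cells. Its level was 4.66 CPM in Tom+ stromal cells (4.08 to 5.29, 238 UMIs), 5.79 in Tom- stromal cells (5.18 to 6.44, 335 UMIs), 12.4 in Tom+ mesothelial cells (9.59 to 15.8, 66 UMIs) and 8.47 in Tom- mesothelial cells (7.50 to 9.53, 274 UMIs). Stromal cells sorted as Tom+ thus held no more Cdkn2a RNA by CPM than those sorted as Tom-, while in mesothelial cells the Tom+ library was higher and the intervals did not overlap. By qPCR, which reads p16 alone, the study reported higher p16 in Tom+ than in Tom- progenitors of old mice. The UMIs here count the whole gene, so the measures are not alike. A Cdkn2a UMI was seen in 3.40% of Tom+ and 3.56% of Tom- stromal cells and in 10.0% and 8.59% of mesothelial cells. After thinning each cell to 5000 UMIs, which removes differences in depth, the shares were 1.72% (1.29 to 2.24) and 1.94% (1.56 to 2.38) in stromal cells and 4.80% (2.50 to 8.23) and 3.39% (2.62 to 4.32) in mesothelial cells. Within either class the thinned shares of the libraries overlapped. No cell type known to lack Cdkn2a was in these libraries, so the share that free RNA alone would give was not measured. Barcodes with 1000 genes or fewer held Cdkn2a at 4.79 CPM (2.07 to 9.44) in the Tom+ library, on 8 UMIs. Their Cdkn2a level was not below that of stromal cells in either library, and what these barcodes hold was not tested.

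Few cells carried most of the Cdkn2a UMIs. Cells with at least 3 UMIs were 27 of 3263 in Tom+ stromal cells (0.827%) and held 133 of the 238 UMIs, and the highest cell had 9. Of 4800 Tom- stromal cells, 33 reached 3 UMIs (0.688%) and held 51.3% of the UMIs. In mesothelial cells they were 7 of 250 in the Tom+ library (2.80%, 1.13 to 5.68) and 26 of 1887 in the Tom- library (1.38%, 0.902 to 2.01), holding 63.6% and 39.4% of the UMIs. The Tom+ mesothelial level therefore rested mainly on 7 cells, of which the highest had 13 UMIs.

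**Figure D1:**
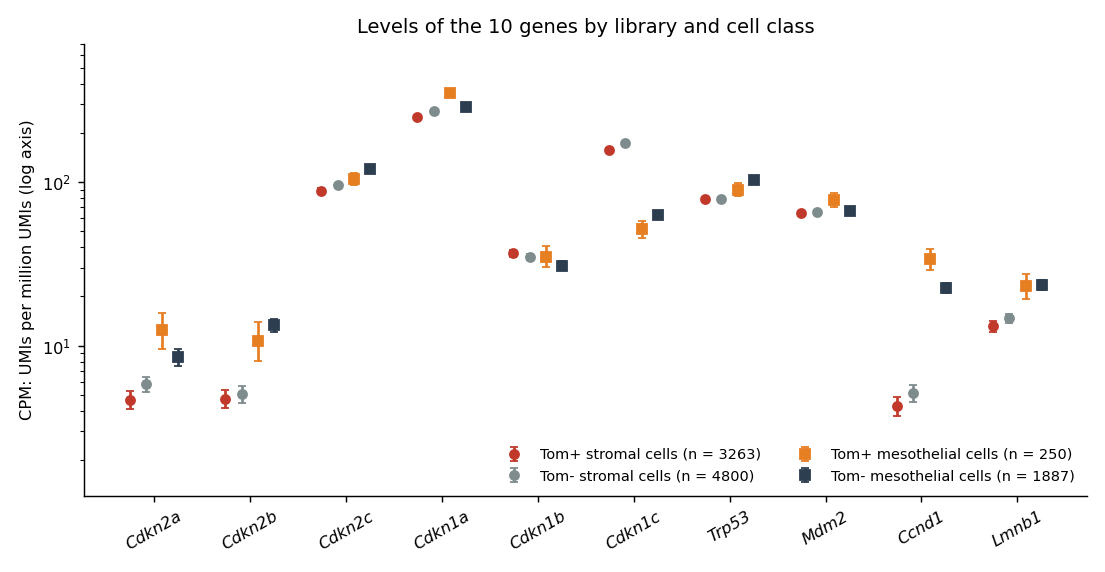
CPM (log axis) of the 10 genes in Tom+ and Tom- stromal cells (circles) and mesothelial cells (squares), with exact Poisson 95% intervals for counting error. Cdkn2a, Cdkn2b, Ccnd1 and Lmnb1 sat higher and Cdkn1c lower in both mesothelial groups than in both stromal groups.

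The other INK4 genes did not differ between the sorted libraries past the fold. Cdkn2b, which encodes p15Ink4b and lies beside Cdkn2a at 4:89306299-89311039, was at 4.75 (4.18 to 5.39) in Tom+ and 5.03 (4.47 to 5.64) in Tom- stromal cells, and at 10.7 (8.11 to 13.9) and 13.3 (12.1 to 14.6) in mesothelial cells. Cdkn2c, which encodes p18Ink4c, was at 88.9 and 96.3 in stromal cells and at 104 and 120 in mesothelial cells. Both were thus a little lower in the Tom+ library in either class, and the intervals of Cdkn2b overlapped. Without the immunoglobulin-rich cells this was not kept for stromal Cdkn2b, at 5.24 in Tom+ and 5.20 in Tom- cells. Stromal Cdkn2c was then at 96.2 and 98.5. Cdkn2b UMIs were spread thinly, with at most 3 in a Tom+ stromal cell, and were seen in 6.31% of Tom+ and 5.29% of Tom- stromal cells but 18.4% and 17.9% of mesothelial cells.

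Among the CIP/KIP genes, Cdkn1a (17:29090976-29100727) was at 251 (247 to 255) in Tom+ and 274 (270 to 278) in Tom- stromal cells and at 352 (336 to 368) and 287 (281 to 292) in mesothelial cells. The Tom+ library was the lower one in stromal cells and the higher one in mesothelial cells. Among Tom+ mesothelial cells, however, Cdkn1a was at 548 (509 to 590) in the 52 cells with 0 tdTomato UMIs. In the 144 cells with 5 or more it was at 269 (250 to 289), not above the 287 of the Tom- library. Cdkn1a UMIs were uneven over cells, since the 10% of cells with most of them held 63.8% and 53.9% of the Cdkn1a UMIs of Tom+ and Tom- stromal cells, and 60.7% and 59.5% in mesothelial cells, whereas the deepest 10% of cells held between 19.8% and 21.9% of all UMIs. The highest cell had 239 Cdkn1a UMIs, and the narrow intervals of Cdkn1a do not reflect this unevenness. By qPCR the study reported higher p21 in Tom+ than in Tom- progenitors of old mice, whereas the stromal UMIs here were a little lower in Tom+. The qPCR primers of the study for Cdkn1a both lie in exon 2, and each matched 4 of its 5 transcripts, so unlike the Cdkn2a pair they do not single out 1 product.
Cdkn1a forward: cctggtgatgtccgac
Cdkn1a reverse: ccatgagcgcatcgca
An opposite-strand gene overlaps Cdkn1a, as one does Cdkn1c and Ccnd1, and whether the counting used strand is not given in the sources used here.

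Cdkn1b, which encodes p27Kip1, was at 36.7 and 34.8 in Tom+ and Tom- stromal cells and at 35.1 and 30.8 in mesothelial cells, so it was close to level over the 4 groups. Cdkn1c, which encodes p57Kip2, was at 157 and 173 in stromal cells but only 51.5 and 63.1 in mesothelial cells. It was the one inhibitor far below its stromal level in mesothelial cells, and a Cdkn1c UMI was seen in 73.6% and 71.4% of stromal cells against 46.8% and 48.4% of mesothelial cells.

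Trp53 (11:69580359-69591873) was at 78.8 and 79.0 in Tom+ and Tom- stromal cells and at 90.0 and 103 in mesothelial cells. Mdm2 (10:117688875-117710758) was at 64.4 and 65.8 in stromal cells and at 78.2 (70.8 to 86.0) and 66.9 (64.2 to 69.8) in mesothelial cells. Neither differed between the sorted stromal libraries beyond counting error. Ccnd1 (7:144929931-144939925) was at 4.27 and 5.10 in stromal cells and at 33.8 (29.1 to 39.1) and 22.5 (20.9 to 24.2) in mesothelial cells, and Lmnb1 (18:56707813-56753424) at 13.1 and 14.7 in stromal cells and at 23.1 and 23.5 in mesothelial cells. Ccnd1 UMIs in stromal cells were also few and clustered, since 1 Tom+ stromal cell held 33 of 218.

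In stromal cells, none of the 10 genes passed the fold between Tom+ and Tom- (6.39% of all genes tested were past it in the higher direction and 4.26% in the lower). The median log2 ratio of the 10 genes was -0.12, against 0.07 over the 9778 genes tested. Cdkn2a had the lowest ratio, with a log2 ratio of -0.31 (-0.56 to -0.07), followed by Ccnd1 at -0.26 (-0.52 to 0.00) and Lmnb1 at -0.16 (-0.31 to -0.01). Cdkn1c was at -0.14 (-0.18 to -0.09), Cdkn1a at -0.13 (-0.16 to -0.09) and Cdkn2c at -0.12 (-0.17 to -0.06), while Cdkn1b was at 0.07, and Trp53, Mdm2 and Cdkn2b lay within 0.1 of 0 with intervals that held 0. Lower rather than higher values of these genes in the Tom+ stromal library were therefore small. The ratios moved with the immunoglobulin-rich cells, as did the all-gene median.

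Without the immunoglobulin-rich cells, Cdkn1a came to -0.04, Cdkn1c to -0.05 and Cdkn2c to -0.03, and Cdkn2a to -0.18 (-0.43 to 0.07). The median of the 10 genes then rose from -0.12 to -0.04 and that of all genes from 0.07 to 0.14. In both settings 8 of the 10 genes had intervals wholly below the all-gene median and 0 had intervals above it. The count below was 5 with stricter classes, 3 after thinning and 2, on 166 Tom+ cells, without cells with markers of other types. Over all kept cells 7 were below and 2 above. The share of all genes with such intervals was not taken, so the counts do not set these genes apart from genes in general. Without the shared barcodes Cdkn2a came to -0.14 (-0.41 to 0.12), and with stricter class limits to 0.22 (-0.09 to 0.54). The sign of the Cdkn2a difference between the stromal libraries was thus not fixed by these data. Ccnd1 went the other way, to -0.68 (-1.02 to -0.36) without the shared barcodes, past the fold.

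In mesothelial cells, 2 of the 10 genes were past the fold, both higher in Tom+ (3.03% of all genes were past it in that direction and 1.78% in the lower). Cdkn2a had a log2 ratio of 0.55 (0.14 to 0.94) and Ccnd1 of 0.59 (0.34 to 0.83). Cdkn1a at 0.30 (0.22 to 0.37) and Mdm2 at 0.22 (0.07 to 0.38) were higher by less than the fold, and Cdkn1c at -0.29 (-0.48 to -0.11), Cdkn2c at -0.20 (-0.33 to -0.07) and Trp53 at -0.20 (-0.34 to -0.06) were lower by less than it. Of the 416 Mdm2 UMIs of the Tom+ mesothelial cells, 37 came from 1 cell, and no ratio was taken without that cell. The median of the 10 genes was 0.08 and that of the 10014 genes tested 0.03. Cdkn2a and Ccnd1 were thus the members furthest above the Tom- level, both on the UMIs of a minority of cells. Of the 66 Cdkn2a and 180 Ccnd1 UMIs of the Tom+ mesothelial cells, 13 and 23 came from 1 cell each. In the 144 of these cells with 5 or more tdTomato UMIs, leaving out the top cell lowered Cdkn2a from 18.9 to 14.5 CPM. It lowered Ccnd1 there from 33.2 to 25.3 CPM. No ratio to the Tom- library was taken without those cells, so neither gene was shown to be past the fold without its top cell.

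The mesothelial values were also taken without the shared barcodes, on 150 Tom+ cells. Cdkn2a was then at 0.70 (0.06 to 1.29) on 27 Tom+ UMIs, Cdkn1a at 0.31, Mdm2 at 0.54 (0.32 to 0.74) and Ccnd1 at 0.45 (0.06 to 0.82), which put Mdm2 past the fold and Ccnd1 just under it. All 4 kept their direction. The share of cells with a Cdkn2a UMI gave a weaker picture than the level, 10.0% (6.58 to 14.4) against 8.59% (7.36 to 9.94), with intervals that overlapped.

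**Figure D2:**
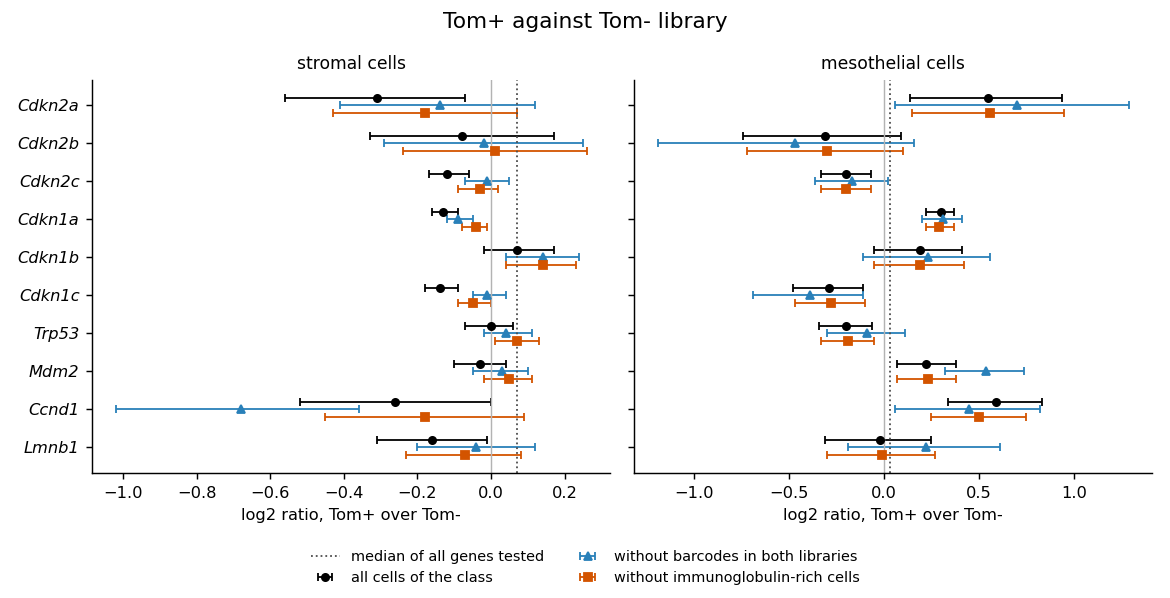
Log2 ratios of Tom+ over Tom- with 95% counting intervals, for stromal cells (left) and mesothelial cells (right), over all cells of the class (black), without barcodes found in both libraries (blue) and without immunoglobulin-rich cells (orange). The dotted line is the median of all genes tested, 0.07 and 0.03. The horizontal scales differ between panels, and Cdkn2a and Cdkn1a lie on opposite sides of 0 in the 2 classes.

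More of the 10 genes were past the fold between cell classes than between libraries, as were more genes in general. Mesothelial cells exceeded stromal cells in 4 of the 10 genes and fell below them in 1, in both libraries and for the same genes (in the Tom- library 24.5% of all genes were past the fold in the higher and 15.7% in the lower direction, and in the Tom+ library 26.0% and 18.6%). The 4 higher genes were Ccnd1, with a log2 ratio of 2.14 (1.95 to 2.34) in the Tom- and 2.99 (2.69 to 3.28) in the Tom+ library, Cdkn2b with 1.40 (1.18 to 1.62) and 1.17 (0.73 to 1.59), Lmnb1 with 0.68 (0.54 to 0.82) and 0.82 (0.53 to 1.10), and Cdkn2a with 0.55 (0.31 to 0.78) and 1.41 (1 to 1.81). Cdkn1c was the lower one, at -1.45 (-1.52 to -1.38) and -1.61 (-1.79 to -1.44). In the Tom- library Cdkn2a fell short of the fold, at 0.41 to 0.47, under 4 alternatives, namely size factors by median of ratios, cells weighted equally, and leaving out shared barcodes or cells with markers of other types. In the Tom+ library a further gene was higher past the fold without shared barcodes (Mdm2, 0.52) and under 5% mitochondrial UMIs (Cdkn1a, 0.52). The median of the 10 genes was 0.35 and 0.38, against 0.14 and 0.11 over all genes.

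Trp53 was a little higher in mesothelial cells, at 0.38 (0.32 to 0.45) in the Tom- and 0.19 (0.05 to 0.33) in the Tom+ library. Cdkn1a was at 0.06 (0.03 to 0.10) in the Tom- and 0.49 (0.42 to 0.56) in the Tom+ library, close to the fold there, and at 0.37 in the Tom+ library without the immunoglobulin-rich cells. Mesothelial cells were deeper than stromal cells, but ratios after thinning had the same sign for the 5 genes past the fold, from -1.39 for Cdkn1c to 2.35 for Ccnd1 in the Tom- library. Endothelial markers did not move together with the class. Kdr was at 119 and 81.5 CPM in Tom+ and Tom- mesothelial cells against 1.06 and 1.78 in stromal cells and Pecam1 at 13.3 and 8.78 against 3.27 and 3.63, whereas Cdh5 was at 0 and 0.0618 against 0.920 and 0.985.

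**Figure D3:**
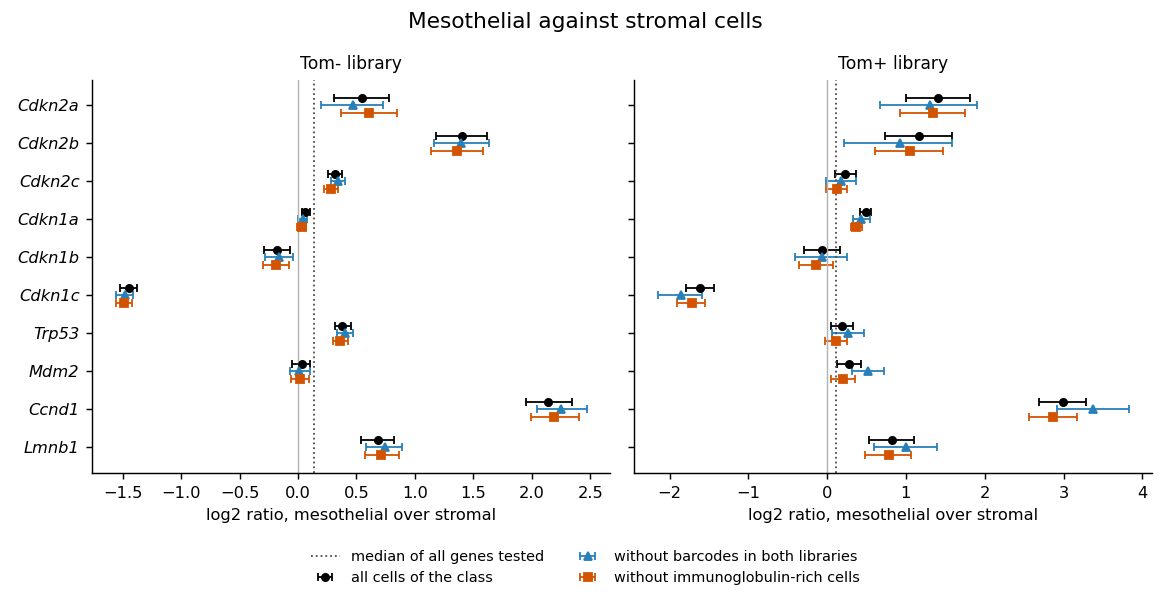
Log2 ratios of mesothelial over stromal cells with 95% counting intervals in the Tom- (left) and Tom+ library (right), for all cells and for both exclusions, as in the plot of Tom+ against Tom-. Ccnd1, Cdkn2b, Lmnb1 and Cdkn2a lie right of the all-gene median (dotted, 0.14 and 0.11) and Cdkn1c lies far left of it in each panel, whose scales differ.

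Reporter RNA allows a second view, since it splits the Tom+ library itself. Of the 3263 Tom+ stromal cells, 2329 had 0 tdTomato UMIs, 604 had 1 to 4 and 330 had 5 or more, and 0 of the 4800 Tom- stromal cells had 5 or more, or at most 0.0625% if a count of 0 is taken to leave room for 3. The immunoglobulin-rich cells were 11, 14 and 127 of these Tom+ groups, or 38.5% of the highest, and summed immune markers rose from 1002 to 12813 and 293780 CPM. With all cells, 8 of the 10 genes were lower past the fold at 5 or more than at 0 tdTomato UMIs and none was higher (73.5% of all genes were lower past the fold and 4.45% higher), and the median of the 10 genes, -0.74, lay beside that of genes in general, -0.73. Lmnb1, at a log2 ratio of -0.34, and Cdkn2a were the other members, Cdkn2a at 4.68 (3.28 to 6.47) against 4.44 (3.76 to 5.21), a log2 ratio of 0.07.

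Without the immunoglobulin-rich cells, which left 203 cells with at least 5 and 2318 with 0 tdTomato UMIs, the summed immune markers were 755 and 558 CPM and the all-gene median was -0.06. Cdkn2a was then the one gene past the fold, higher in the reporter-rich cells (6.72% of all genes were higher past it and 7.40% lower). Its level was 8.83 CPM (5.60 to 13.3) against 4.47 (3.79 to 5.25), a log2 ratio of 0.98 (0.28 to 1.62). This rested on 23 UMIs in 10 of 203 cells (4.93%) against 150 UMIs in 67 of 2318 cells (2.89%), and the thinned shares overlapped, 2.09% (0.573 to 5.28) against 1.57% (1.10 to 2.18). Leaving out the shared barcodes instead gave 1.08 (0.37 to 1.73).

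The other members stayed within the fold. Cdkn1a was at 272 (253 to 293) against 275 (270 to 281), a log2 ratio of -0.02, and Cdkn2b, Cdkn1b, Trp53 and Lmnb1 had ratios of 0.30, 0.09, 0.01 and 0.25 with intervals that held 0. Mdm2 was at 84.9 (74.0 to 96.8) against 68.2 (65.4 to 71.1), a log2 ratio of 0.32 (0.11 to 0.51), and Cdkn1c at 143 (129 to 159) against 173 (168 to 177), a log2 ratio of -0.27 (-0.42 to -0.12), both short of the fold. Of the 221 Mdm2 UMIs of the reporter-rich cells, 20 came from 1 cell. Dissociation response genes, which cells raise while tissue is digested, summed to 44465 CPM in the reporter-rich cells of this comparison. They summed to 37889 in its cells with 0 tdTomato UMIs, and their part in these values was not tested.

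Cells with 1 to 4 tdTomato UMIs lay close to those with 0. None of the 10 genes was past the fold (0.688% of all genes were higher and 0.364% lower). Cdkn2a was at 5.39 (4.03 to 7.07), with an interval that overlapped that of the cells with 0, and Lmnb1 had the lowest ratio, at 10.9 (8.91 to 13.2) against 14.2 (12.9 to 15.5), a log2 ratio of -0.38 (-0.70 to -0.07).

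In Tom+ mesothelial cells, Cdkn2a was higher in the cells with most reporter RNA. Cdkn2a was at 5.35 CPM (2.15 to 11.0) in 52 cells with 0 tdTomato UMIs, at 4.94 (1.81 to 10.7) in 54 cells with 1 to 4 and at 18.9 (14.2 to 24.8) in 144 cells with 5 or more, a log2 ratio of 1.82 (0.68 to 3.20) between the last and the first. Of the 53 UMIs of the highest group, 38 came from 6 cells, and of the 7 UMIs of the cells with 0 tdTomato UMIs 4 came from 1 cell, without which the level there was 2.37 (0.488 to 6.92). Without the shared barcodes there were 24 UMIs in 99 cells with 5 or more and 0 UMIs in 23 cells with 0, so no ratio is given. The share of cells with a UMI was 12.5% against 5.77%, and after thinning 6.25% (2.90 to 11.5) against 1.92% (0.0487 to 10.3), so the intervals of the shares overlapped.

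Cdkn1a and Cdkn1c ran the other way in the same cells, which made 1 gene higher and 2 lower past the fold (8.37% of all genes were higher and 11.1% lower). Without the shared barcodes 2 were higher and 5 lower, and after thinning 1 was higher and 4 lower. Cdkn1a was at 548 (509 to 590), 331 (299 to 365) and 269 (250 to 289) from 0 to 1 to 4 to 5 or more tdTomato UMIs, a log2 ratio of -1.03 (-1.18 to -0.88), which was -0.54 (-0.80 to -0.27) without the shared barcodes. Of the 717 Cdkn1a UMIs in the cells with 0 tdTomato UMIs, 158 came from 1 cell, and without the top cell of each group the levels were 440 (404 to 478), 290 (260 to 322) and 232 (214 to 250). Cdkn1c was at 78.0 (63.6 to 94.7), 53.5 (41.3 to 68.2) and 38.2 (31.3 to 46.2), a log2 ratio of -1.03 (-1.43 to -0.62) with and -1.08 without the shared barcodes. Median depth fell over these groups, at 24467, 20521 and 16641 UMIs per cell, while summed dissociation genes were level at 33996, 32617 and 33189 CPM. After thinning, the log2 ratios were -0.62 for Cdkn1a and -1.31 for Cdkn1c.

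The Tom- library could be split by reporter RNA in the same way. Tom- mesothelial cells with 1 to 4 tdTomato UMIs had 11.6 (8.76 to 15.1) CPM of Cdkn2a against 7.94 (6.92 to 9.06) in those with 0, whereas Tom- stromal cells had 5.07 (3.67 to 6.83) against 5.91 (5.25 to 6.63). The intervals overlapped in both classes. Median depth was also higher in the Tom- mesothelial cells with 1 to 4, at 20049 against 14378 UMIs, and barcodes of this library with 1000 genes or fewer held tdTomato at 212 CPM, so such a UMI need not be expression by the cell.

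**Figure D4:**
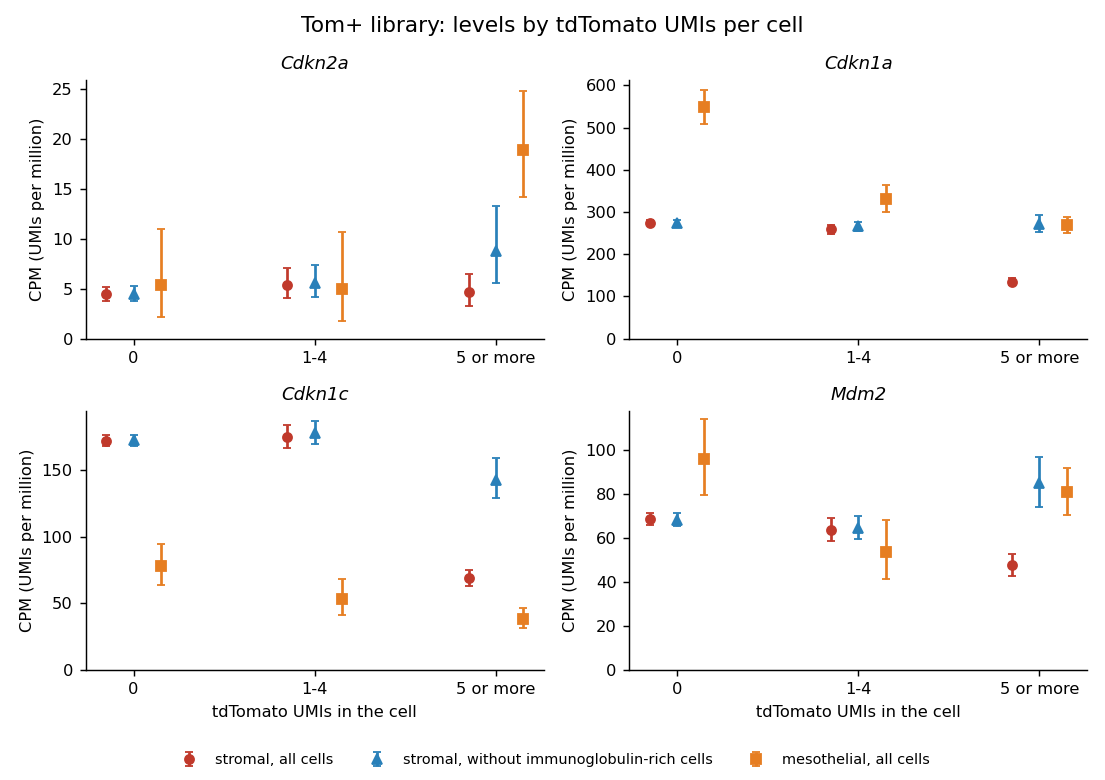
CPM of Cdkn2a, Cdkn1a, Cdkn1c and Mdm2 in Tom+ cells by tdTomato UMIs in the cell, with exact Poisson 95% intervals. Stromal values (circles) fell at 5 or more tdTomato UMIs except for Cdkn2a, and without the immunoglobulin-rich cells (triangles) Cdkn2a rose to 8.83 and Cdkn1a stayed level. In mesothelial cells (squares) Cdkn2a was highest and Cdkn1a and Cdkn1c were lowest in the cells with most reporter.

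The lists around these genes were described in the same way for Tom+ over Tom- stromal cells. There 6.39% of all genes were higher and 4.26% lower past the fold. Of 27 measured p53 targets, 4 were higher and 4 lower past the fold, and their median log2 ratio was the all-gene 0.07. Without the immunoglobulin-rich cells 4 were higher and 2 lower. Trp53inp1, a p53 target that promotes cell death and autophagy, was at 42.5 against 23.3, a log2 ratio of 0.87 (0.77 to 0.97), and Fdxr, which encodes the mitochondrial ferredoxin reductase, at 56.4 against 38.8. On the lower side, the kinase gene Plk2 was at 22.4 against 47.8, a log2 ratio of -1.09 (-1.19 to -0.99), and the stress gene Gadd45a at 24.1 against 36.2. Both directions thus occurred among genes that p53 is known to switch on.

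Of 13 p53 regulators, 1 was higher and none lower, with a median of 0.18. Of 8 G1 cyclins and their kinases, 1 was higher, Ccnd2, which encodes cyclin D2, at 153 against 105 with a log2 ratio of 0.54 (0.50 to 0.59). None of 9 pocket protein and E2F genes, which act downstream of these kinases, was past the fold. Of 28 proliferation genes only 10 reached 5 CPM, and 1 of them was higher, with a median of -0.04. Of 2 further inhibitor genes 1 was measured, within the fold at 0.06.

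Of 12 lamina genes, 1 was lower, Emd, which encodes emerin of the inner nuclear membrane, at 96.1 against 210 with a log2 ratio of -1.13 (-1.17 to -1.08), while Lmna, which encodes lamins A and C, was at 376 against 413. Of 18 known regulators of Cdkn2a, 1 was lower, Kdm6b, a histone demethylase that removes the Polycomb mark, at 428 against 658 with a log2 ratio of -0.62 (-0.64 to -0.60). In mesothelial cells the ratios were -0.18 for Emd, 0.09 for Kdm6b, -0.31 for Plk2, 0.13 for Trp53inp1 and 0.09 for Ccnd2, so none of these 5 was past the fold there, and the difference between the classes was not tested. Of 20 dissociation response genes, 7 were lower in Tom+ stromal cells, with a median of -0.34, among them Myc at 166 against 329 and Cebpb at 1644 against 3019, and 6 were lower without the immunoglobulin-rich cells. Summed, they were at 35932 in Tom+ and 44522 in Tom- stromal cells, and their part in the lower Plk2, Gadd45a, Emd and Kdm6b was not tested.

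Between cell classes the same lists differed more, as did genes in general. In the Tom- library 24.5% of all genes were higher and 15.7% lower past the fold in mesothelial than in stromal cells. In the Tom+ library these shares were 26.0% and 18.6%. Of 29 measured p53 targets, 13 were higher and 3 lower past the fold in mesothelial than in stromal cells of the Tom- library, with a median log2 ratio of 0.41 against 0.14 over all genes, and 13 were higher and 4 lower in the Tom+ library, with a median of 0.48 against 0.11. Of the proliferation genes measured, 5 of 10 were higher in the Tom- and 6 of 11 in the Tom+ library and none was lower, with medians of 0.54 and 0.61. Within Tom+ mesothelial cells, 1 of 29 p53 targets was higher and 7 were lower at 5 or more than at 0 tdTomato UMIs, with a median of -0.19. Of all genes, 8.37% were higher and 11.1% lower past the fold there.

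**Figure D5:**
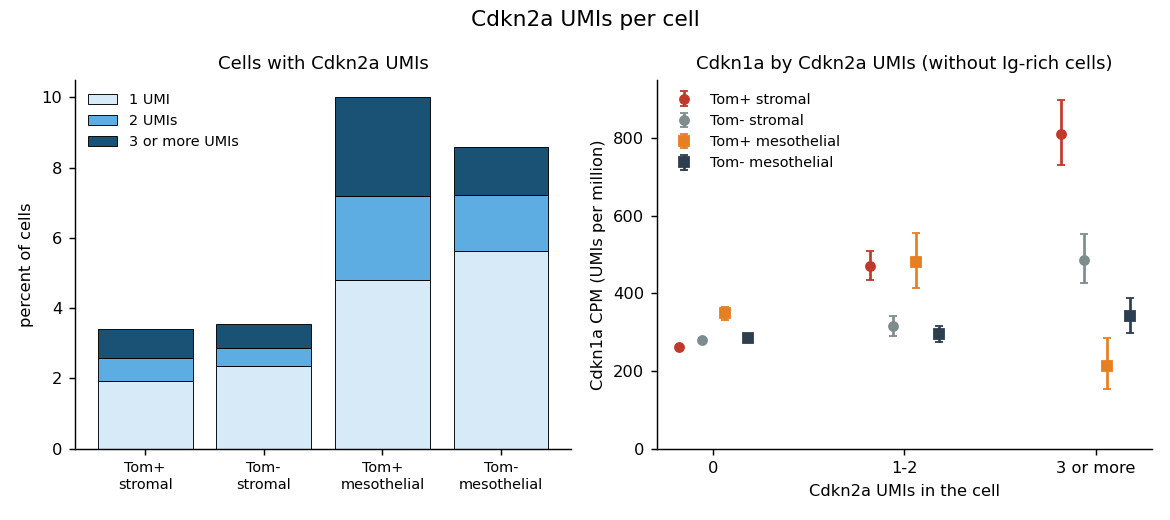
Left, percent of cells with 1, 2 and 3 or more Cdkn2a UMIs by library and class, which total 3.40%, 3.56%, 10.0% and 8.59%. Right, CPM of Cdkn1a in cells with 0, 1 to 2 and 3 or more Cdkn2a UMIs, without immunoglobulin-rich cells and with exact Poisson 95% intervals, where the stromal values rose with Cdkn2a in both libraries.

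Cdkn1a could also be read against Cdkn2a in single cells, after leaving out immunoglobulin-rich cells. In Tom+ stromal cells Cdkn1a was at 262 CPM in 3006 cells without Cdkn2a UMIs, 471 (435 to 510) in 80 cells with 1 to 2 and 811 (731 to 897) in 25 cells with 3 or more, of which 18 held a Cdkn1a UMI and the highest held 63 of 375. In Tom- stromal cells the levels were 279, 316 (291 to 343) and 486 (426 to 554), the last in 31 cells of which 27 held a UMI. The order was the same in both stromal libraries. In mesothelial cells it was not, with 349, 481 and 212 (154 to 285) in the Tom+ library, the last in 7 cells, and 286, 296 and 341 (298 to 389) in the Tom- library. Lmnb1 was not lower in stromal cells with 3 or more Cdkn2a UMIs than in those with 0. It was at 21.6 (10.4 to 39.8) against 13.5 (12.4 to 14.6) in Tom+ and 21.2 (10.2 to 39.1) against 14.3 (13.3 to 15.3) in Tom- cells. These rested on 10 UMIs each and the intervals overlapped. In mesothelial cells Lmnb1 was at 28.9 against 22.1 in Tom+ and 18.3 against 23.8 in Tom- cells. These are descriptions of cells grouped by their own Cdkn2a UMIs, and deeper cells pass such a threshold more often, with median depths of 13962 and 15703 UMIs at 0 and at 3 or more in Tom+ stromal cells.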

How the data were processed

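The authors made the deposited UMI counts per gene and barcode from 10x Genomics 3′ v3.1 libraries with Cell Ranger 3.0.2 and the mm10 genome, 1 library per condition. No quality filter on cells is visible in the files, so the filters given in the report were applied. Counts were summed over cells of a library, class and tdTomato group and divided by the group's total UMIs. The libraries held 61119807 (Tom+) and 96872394 (Tom-) UMIs. Intervals are exact Poisson for levels, exact Clopper-Pearson for shares and exact conditional binomial for ratios, all at 95%, and cover counting error only. No test between conditions was run, since cells are not replicates, and no doublet caller was run. The background shares use genes averaging 5 CPM or more, while all 10 members were counted whatever their level. Of each list, the text names from the 2 highest and 2 lowest ratios among genes with at least 20 CPM. Thinning to 5000 UMIs left out 119 Tom+ and 253 Tom- stromal and 0 and 31 mesothelial cells. Coordinates and transcripts are from GENCODE for GRCm38. Members and lists were chosen with earlier results of these data known, and leaving out immunoglobulin-rich cells, or the cell with most UMIs of a gene, was chosen after seeing the data. Ratio code was tested on simulated data. The software was numpy 2.4.6, scipy 1.17.1, pandas 2.3.3 and matplotlib 3.10.9 under Python 3.11.15. Alternatives were size factors by median of ratios, equal weight per cell, a mitochondrial limit of 5%, stricter classes, thinning, a fold of 1 on the log2 scale, all kept cells together, every gene with a UMI, and leaving out shared barcodes or cells with at least 3 UMIs of other cell types.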

Additional observations from a re-analysis of the deposited data

Results flagged for a closer look

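Cdkn2a and Cdkn1a differed between Tom+ and Tom- in opposite directions in the 2 cell classes, with both counting intervals clear of 0. For Cdkn2a the log2 ratio was -0.31 in stromal and 0.55 in mesothelial cells, and for Cdkn1a it was -0.13 and 0.30. With 1 library per condition the difference between the classes was not tested. Without the immunoglobulin-rich cells the stromal values were -0.18 and -0.04 and the mesothelial ones 0.56 and 0.29. The stromal Cdkn2a value did not hold its sign, at 0.22 (-0.09 to 0.54) with stricter classes, and was -0.14 (-0.41 to 0.12) without the shared barcodes. Of the 66 Cdkn2a UMIs of Tom+ mesothelial cells, 13 came from 1 cell, and the ratio was not shown to be past the fold without it. Cdkn1a was at 548 CPM in the Tom+ mesothelial cells with 0 tdTomato UMIs and at 269 in those with 5 or more. The latter value was not above the level of the Tom- mesothelial cells.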

How the results depend on the processing

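No paired analysis was possible because each condition was 1 library. Of 534 recomputed ratios of the 10 genes, 395 stayed within the interval of the reported value, 125 left it and 14, all of values past the fold, changed sign. These 14 were for 5 or more over 0 tdTomato UMIs in Tom+ stromal cells, where the immunoglobulin-rich cells lie. Without the shared barcodes the log2 ratios were 0.11 for Cdkn2b, 0.11 for Cdkn1b, 0.23 for Mdm2 and 0.30 for Ccnd1. Without the immunoglobulin-rich cells they were 0.30 for Cdkn2b, 0.09 for Cdkn1b, 0.01 for Trp53 and 0.32 for Mdm2. Size factors by median of ratios gave 0.20 for Cdkn1b, 0.04 for Trp53 and 0.20 for Mdm2, and thinning gave 0.07 for Cdkn1b. Leaving out cells with at least 3 UMIs of other cell types gave 1.27 for Cdkn1a and 0.34 for Mdm2, on 12 cells against 127, and no Tom+ mesothelial cell was under that limit. Values short of the fold also changed sign elsewhere, such as Cdkn2a for Tom+ over Tom- stromal cells, 0.22 with stricter classes.

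Counts of genes past the fold changed by over 1.5 times as follows, others by at most 2 genes, and the cause was not tested where none is named. Tom+ over Tom- stromal cells went from 0 to 1 under 5% mitochondrial UMIs and without shared barcodes and to 2 over all kept cells. In mesothelial cells it went from 2 to 1 with cells weighted equally and under 5% mitochondrial UMIs and to 0 at a log2 fold of 1. Mesothelial over stromal cells of Tom- went from 5 to 3 at that fold. For 5 or more over 0 tdTomato UMIs in stromal cells it went from 8 to 2 by median of ratios, 3 with cells weighted equally, 1 without shared barcodes, 5 without cells of other markers, 1 without immunoglobulin-rich cells and 3 at a log2 fold of 1. For 1 to 4 over 0 it went from 0 to 2 with cells weighted equally, 7 without cells of other markers and 1 with thinning. In mesothelial cells 5 or more over 0 went from 3 to 7 without shared barcodes and 5 with thinning. Over every gene with a UMI, 21.1% and 17.3% of genes were past the fold for Tom+ over Tom- stromal cells, so that the share of genes in general depends on the filter.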

Other observations

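Stromal cells of adipose tissue include interstitial progenitors, marked by Pi16 and Dpp4, and preadipocytes, marked by Pparg. They were split by these genes, without immunoglobulin-rich cells and by a rule chosen after seeing the data. The levels of some members varied between these states, but no ratio and no share of all genes was taken, so no change is named. Pi16 Dpp4 cells had at least 2 UMIs of Pi16 and Dpp4 together and no Pparg UMI. Pparg cells had at least 1 Pparg UMI and none of Pi16 or Dpp4. All other cells, including those with both kinds of marker, formed the remaining group. Cdkn1b was highest in Pi16 Dpp4 cells in both libraries, at 44.8 and 43.0 CPM in Tom+ and Tom- cells against 36.7 and 35.9 in Pparg cells and 36.4 and 31.3 in the remaining cells. Lmnb1 was also highest there, at 15.9 in Tom+ cells against 10.8 in Pparg cells, and the Tom- values lay within 0.1 of these. Mdm2 was lowest in Pi16 Dpp4 cells, at 55.9 and 60.6 against 74.9 and 70.7 in Pparg cells. Cdkn2b was also lowest in Pi16 Dpp4 cells, at 3.74 and 3.60 on 46 and 55 UMIs. It was at 6.18 and 5.40 in Pparg cells and at 5.68 and 5.93 in the remaining cells. The intervals of Cdkn1b and of Cdkn2b overlapped between Pi16 Dpp4 and Pparg cells in both libraries. Cdkn2a was at 4.23, 4.84 and 5.33 in Tom+ and at 5.30, 2.64 and 6.56 in Tom- cells of the Pi16 Dpp4, Pparg and remaining kinds, so the libraries did not share an order.

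Cells with at least 3 Cdkn2a UMIs also differed from those with none in other members. In Tom- stromal cells Ccnd1 was at 34.0 (19.4 to 55.2) against 4.16 (3.63 to 4.74) and Cdkn2b at 21.2 (10.2 to 39.1) against 4.85 (4.28 to 5.48), on 16 and 10 UMIs in 31 cells. Of the 16 Ccnd1 UMIs 10 came from 1 cell, and without it Ccnd1 was at 13.8 (5.05 to 29.9). In Tom- mesothelial cells Cdkn2b was at 24.4 (13.9 to 39.6) against 12.3 (11.1 to 13.7) and Cdkn1c at 22.8 (12.8 to 37.7) against 66.3 (63.4 to 69.4). Of the 16 Cdkn2b UMIs there 5 came from 1 cell. Without it Cdkn2b was at 17.9 (8.94 to 32.0), an interval that overlapped that of the cells with none. Ccnd1 hardly differed in Tom- mesothelial cells, at 24.4 (13.9 to 39.6) against 22.2 (20.5 to 24.0). In Tom+ stromal cells Cdkn2b was at 6.49 (1.34 to 19.0) on 3 UMIs against 5.01 in cells with none, and at 12.4 (7.10 to 20.2) in cells with 1 to 2 Cdkn2a UMIs. In Tom+ mesothelial cells it was at 24.1 (7.82 to 56.2) on 5 UMIs against 9.89.

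The immunoglobulin-rich stromal cells held Cdkn2a at 2.29 (1.22 to 3.92) in the Tom+ and 10.6 (6.73 to 15.9) in the Tom- library, and tdTomato at 636 and 10.6. These Cdkn2a levels rested on few cells. A Cdkn2a UMI was seen in 6 of the 152 Tom+ and 9 of the 73 Tom- cells, and 2 cells of each library held 3 or more. Barcodes with 1000 genes or fewer, which were not used elsewhere, held Ccnd1 at 47.9 CPM in the Tom+ and 57.4 in the Tom- library, above the level of each cell class. They held Cdkn2a at 4.79 and 10.2, Cdkn1a at 159 and 180, and tdTomato at 241 and 212, so the reporter hardly differed between the libraries there. These Cdkn2a levels were not below those of stromal cells, 4.66 and 5.79 CPM. The 2224 barcodes found in both libraries had a median depth of only 698 UMIs in the Tom+ and 926 in the Tom- library. The low-gene barcodes of the 2 libraries were thus in part the same barcodes, and their values are not independent of each other.

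Over the 10 groups of library, class and tdTomato UMIs with at least 50 cells, the genes whose log2 level was most like that of Cdkn2a were Sys1 (Pearson r 0.890), Eif2b5 (0.885) and Mob2 (0.876). For Cdkn2b they were Snap47 (0.977), Polr2e (0.968) and Cops5 (0.964), and for Cdkn1a Pld3 (0.98), Skiv2l (0.952) and Mrps26 (0.951). Groups of 1 library share its depth and its free RNA, and the groups include the immunoglobulin-rich cells.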
